A study of Mus musculus with 2 samples.

Results

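Serine is the main donor of the one-carbon units that cells attach to folate and spend on purine rings and thymidylate. Phgdh, Psat1 and Psph encode the enzymes that make serine from a glycolytic intermediate. The folate enzymes then take a carbon from serine and oxidize or reduce it, in the cytosol (Shmt1, Mthfd1) and in mitochondria (Shmt2, Mthfd2, Mthfd1l). Mitochondria release the carbon as formate, which Mthfd1 joins to folate again in the cytosol. Dividing progenitors need both products for DNA synthesis, and in many cell types the transcription factor ATF4 controls several of these genes.

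The 8 genes were chosen by symbol, and all 8 were found among the 24421 symbols of both libraries. Granulocyte-monocyte progenitors (GMPs), the BM cells that give rise to neutrophils and monocytes, were sorted by flow cytometry for bulk RNA-seq. NTB-GMP came from female mice without a tumor. 4T1-GMP came from female mice carrying 4T1, a mouse mammary carcinoma cell line, implanted in the mammary gland. The labels give both groups an F1 semi-syngeneic background (H-2b/d), and they give no age and no number of mice per library. Each group was 1 library, so no value has a replicate error and no difference between the conditions was tested. All intervals are 95% intervals on the reads of these libraries and cover counting error only. They treat reads as independent, but PCR reads without molecular identifiers are not independent molecules, so the intervals may be too narrow.

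The authors deposited RPKM, reads divided by gene length and by library size, which allows levels of different genes to be compared. The library sizes behind them were 10180365 reads for NTB-GMP and 30016263 for 4T1-GMP, a difference in depth of 2.95 times. These sizes were recovered from the RPKM and rounded. They did not come out as whole numbers, so they may carry a normalization factor, and the depth, the shares of Rn45s and the rescaling without Rn45s rest on them. Rn45s, the ribosomal RNA precursor, took 17.0% of the first and 6.98% of the second. Library sizes without Rn45s would lower every log2 ratio of 4T1-GMP over NTB-GMP by 0.16, as the shift of -0.16 applies to all genes alike. All 9 GMP markers were detected, with Mpo at 5162 and 5625 RPKM (NTB-GMP first) and Ms4a3 at 479 and 1220 RPKM. Of these markers, 6 were higher in 4T1-GMP and 3 were at least 1.5-fold lower, namely Cd34 (154 and 59.4 RPKM), Kit (78.5 and 49.1 RPKM) and Fcgr3 (53.1 and 28.6 RPKM). Of 10 erythroid markers, 4 globin genes were listed at 0 in both libraries, and the 3 tested (Car2, Gata1 and Klf1) were at least 1.5-fold lower in 4T1-GMP, the list summing to 18.9 and 4.15 RPKM. Of 5 mammary tumor markers, Epcam and Krt14 were listed at 0 in both libraries, while Krt18 (12.8 and 8.90 RPKM) and Cdh1 (5.36 and 1.04 RPKM) were lower in 4T1-GMP. The remaining marker, Krt8, was higher in 4T1-GMP, at 0.0544 and 0.111 RPKM, but with only 1 and 6 reads. Of 14 mature neutrophil markers, 13 could be tested and all 13 were at least 1.5-fold higher in 4T1-GMP, with a summed level of 521 and 4084 RPKM. Of 9 monocyte and dendritic markers tested, 8 were at least 1.5-fold lower, with sums of 200 and 83.1 RPKM. Over all genes tested, 54.7% were higher in 4T1-GMP, 9.8% at least 1.5-fold higher and 11.6% at least 1.5-fold lower. Testing required a mean of at least 1 RPKM over both libraries. Ly6g (0.426 and 4.30 RPKM), Mmp8 (0.521 and 14.1 RPKM) and Mmp9 (0.588 and 15.6 RPKM) reached that only through 4T1-GMP. Klf1, Gata1, Ly86 and Cx3cr1 reached it only through NTB-GMP. For such genes the limit itself favors a difference in that direction. In bulk samples, more cells of a type and more RNA per cell cannot be told apart, and the part of these marker shifts in the values below was not tested.

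The 3 sequences shown are the 100 bases before a RefSeq start of transcription. They are given for the enzymes with the largest differences between the libraries (Mthfd2 and Psph) and the enzyme with the smallest (Shmt1). All 3 stretches lie inside the GENCODE M21 gene spans given below, which begin further upstream. The sequences come from GRCm38.p6 and run 5′ to 3′ on the gene's strand, with capitals marking CCAAT boxes, or ATTGG where the box lies on the other strand.
Mthfd2 (chr6:83317605-83317704, minus strand): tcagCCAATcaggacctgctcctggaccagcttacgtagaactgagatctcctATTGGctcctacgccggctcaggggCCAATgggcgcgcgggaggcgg
Psph (chr5:129787254-129787353, minus strand): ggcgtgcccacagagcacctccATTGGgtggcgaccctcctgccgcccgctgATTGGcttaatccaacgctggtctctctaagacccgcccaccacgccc
Shmt1 (chr11:60811266-60811365, minus strand): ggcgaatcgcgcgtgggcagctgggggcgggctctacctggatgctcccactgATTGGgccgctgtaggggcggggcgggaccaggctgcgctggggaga

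These stretches held 3 CCAAT boxes before Mthfd2, 2 before Psph and 1 before Shmt1. The number of boxes did not follow the folds over the 8 genes, since the same stretch held 2 before 1 of the listed starts of Psat1 and none before the other, 1 before Phgdh and Mthfd1, and none before Shmt2 and Mthfd1l. The full promoter windows reach from 250 bases before to 50 bases after a start. Of the 9 such windows of the 8 genes, 6 held a CCAAT box on either strand. These 6 windows belonged to 6 different genes, with Shmt2 and Mthfd1l without a box. By comparison, 37.4% of 32851 mouse promoter windows of that length held the box. The amino acid response core TGATGNAA and the E-box CACGTG, each searched on both strands, were in none of the 9 windows of the 8 genes, against 3.97% and 7.15% of all windows. The CCAAT box was added to the search after the values were seen. A match is a string of letters and was not tested for binding here. These counts hold for the listed RefSeq starts only, and other starts were not searched.

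All 8 enzymes were higher in 4T1-GMP than in NTB-GMP on the deposited RPKM, by 1.13-fold to 2.37-fold, although Phgdh turned slightly lower after quantile normalization. Mthfd2 and Psph were more than 2-fold higher, and the other 6 stayed within 1.34-fold. The genes tested were the 10378 whose RPKM averaged 1 or more over both libraries. Of these, 54.7% were higher in 4T1-GMP, 45.3% were lower and 9.8% were at least 1.5-fold higher. Among genes averaging 5 RPKM or more, as all 8 enzymes did, 59.9% were higher and the median log2 ratio was 0.09. The median log2 ratio, on the log2(RPKM + 0.1) scale, was 0.36 over the 8 enzymes and 0.05 over all genes tested. With library sizes without Rn45s the medians were 0.20 and -0.11, all 8 enzymes were still higher, and 39.2% of all genes were. Mthfd2 and Psph were still past 1.5-fold under that scaling, as were 5.73% of all genes. The interval on the reads lay above no change for all 8 enzymes, as it did for 36.3% of all genes tested, while 28% of all genes had an interval below it. Without Rn45s it did so for 7 of 8 enzymes, Shmt1 being the exception, and for 22.3% of all genes. Such intervals narrow as reads increase, so these shares also depend on how abundant the genes are.

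**Figure D1:**
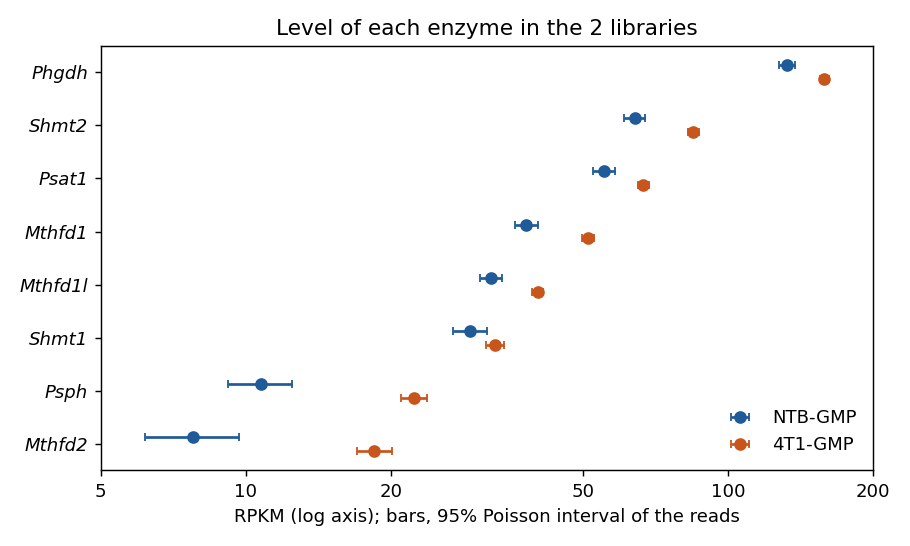
RPKM (log axis) of each enzyme in NTB-GMP (blue) and 4T1-GMP (orange), 1 library each, with 95% Poisson intervals of the reads as bars. The order from Phgdh at 133 and 158 RPKM down to Mthfd2 at 7.78 and 18.5 RPKM was the same in both libraries, and each orange point lies to the right of its blue point (after quantile normalization, not plotted, Phgdh was slightly lower in 4T1-GMP).

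Phgdh, on chromosome 3 (98313170 to 98339990, minus strand), encodes the dehydrogenase that commits 3-phosphoglycerate to serine synthesis. Phgdh stood at 133 RPKM without a tumor (2527 reads) and at 158 RPKM with 4T1 (8894 reads), a fold of 1.19 (Clopper-Pearson interval 1.14 to 1.248). It was the most abundant of the 8 enzymes in both libraries, above 96.5% of all genes tested in each. After quantile normalization its log2 ratio was -0.017, against 0.26 as deposited.

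Psat1, on chromosome 19 (15904678 to 15947337, minus strand), encodes the aminotransferase of the step that follows. Psat1 stood at 55.4 RPKM without a tumor (1404 reads) and at 66.7 RPKM with 4T1 (4990 reads), a fold of 1.21 (interval 1.14 to 1.28). The ratio of Psat1 to Phgdh, which does not depend on library size, was 0.417 in NTB-GMP and 0.421 in 4T1-GMP. The exact conditional interval of the change in that ratio was 0.937 to 1.09, so a difference between these enzymes was not detectable at this depth.

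Psph, on chromosome 5 (129765558 to 129787449, minus strand), encodes the phosphatase that releases serine in the last step. Psph stood at 10.7 RPKM without a tumor (168 reads) and at 22.3 RPKM with 4T1 (1030 reads), a fold of 2.08 (interval 1.76 to 2.46). The last enzyme of the route was the least abundant of its 3 enzymes in both libraries and had the largest ratio between the libraries. Psph against Phgdh changed by 1.74-fold (interval 1.47 to 2.08) and Psph against Psat1 by 1.73-fold (interval 1.45 to 2.06). Its log2 ratio of 1.05 was above that of 97.1% of all genes tested. In the GENCODE M21 annotation, 452 of the 4329 exonic bases of Psph overlap exons of Cct6a on the opposite strand, and whether the counting used strand is not given in the sources used here. The gene length behind the RPKM of Psph was 1537 bases or a multiple of it.

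Shmt1, on chromosome 11 (60788104 to 60811718, minus strand), encodes the cytosolic enzyme that moves a carbon from serine to tetrahydrofolate. Shmt1 stood at 29.2 RPKM without a tumor (613 reads) and at 32.8 RPKM with 4T1 (2035 reads), a fold of 1.13 (interval 1.03 to 1.23). This was the smallest of the 8 differences. Without Rn45s in the library sizes its log2 ratio was 0.01, with an interval of -0.12 to 0.14 that includes no change.

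Shmt2, on chromosome 10 (127517123 to 127522444, minus strand), encodes the mitochondrial counterpart of Shmt1. Shmt2 stood at 64.1 RPKM without a tumor (1504 reads) and at 84.7 RPKM with 4T1 (5857 reads), a fold of 1.32 (interval 1.248 to 1.40). The mitochondrial form was the more abundant in both libraries, with 2.198 times the RPKM of Shmt1 in NTB-GMP and 2.58 times in 4T1-GMP. That ratio was 1.17-fold higher in 4T1-GMP (interval 1.05 to 1.31).

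Mthfd1, on chromosome 12 (76255298 to 76319803, plus strand), encodes a cytosolic protein with the activities that take formate to methylene-tetrahydrofolate. Mthfd1 stood at 38.2 RPKM without a tumor (1292 reads) and at 51.3 RPKM with 4T1 (5117 reads), a fold of 1.34 (interval 1.26 to 1.43). Mthfd1 was 1.31 times as abundant as Shmt1 in NTB-GMP and 1.56 times in 4T1-GMP, a change of 1.19-fold (interval 1.07 to 1.33). This interval lay above 1, but it treats reads as independent.

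Mthfd1l, also on chromosome 10 (3973118 to 4167081, plus strand), encodes the mitochondrial enzyme that releases formate. Mthfd1l stood at 32.3 RPKM without a tumor (1423 reads) and at 40.3 RPKM with 4T1 (5239 reads), a fold of 1.249 (interval 1.18 to 1.32). Mthfd1l stood to Mthfd1 as 0.845 in NTB-GMP and 0.786 in 4T1-GMP. The change of 0.930-fold had an interval of 0.853 to 1.01, so a difference between these related genes was not detectable at this depth.

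Mthfd2, on chromosome 6 (83305691 to 83325908, minus strand), encodes the mitochondrial dehydrogenase and cyclohydrolase of proliferating cells. Mthfd2 stood at 7.78 RPKM without a tumor (82 reads) and at 18.5 RPKM with 4T1 (574 reads), a fold of 2.37 (interval 1.88 to 3.03). It was the least abundant of the 8 enzymes in both libraries and had the largest ratio, above that of 97.8% of all genes tested. Mthfd2 changed by 1.77-fold against Mthfd1 (interval 1.39 to 2.27), by 1.90-fold against Mthfd1l (interval 1.49 to 2.44) and by 1.798-fold against Shmt2 (interval 1.41 to 2.31). Against Psph it changed by 1.14-fold with an interval of 0.854 to 1.54, which includes no change. Its read counts may be too low by a common factor, in which case intervals on the full counts would be narrower.

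**Figure D2:**
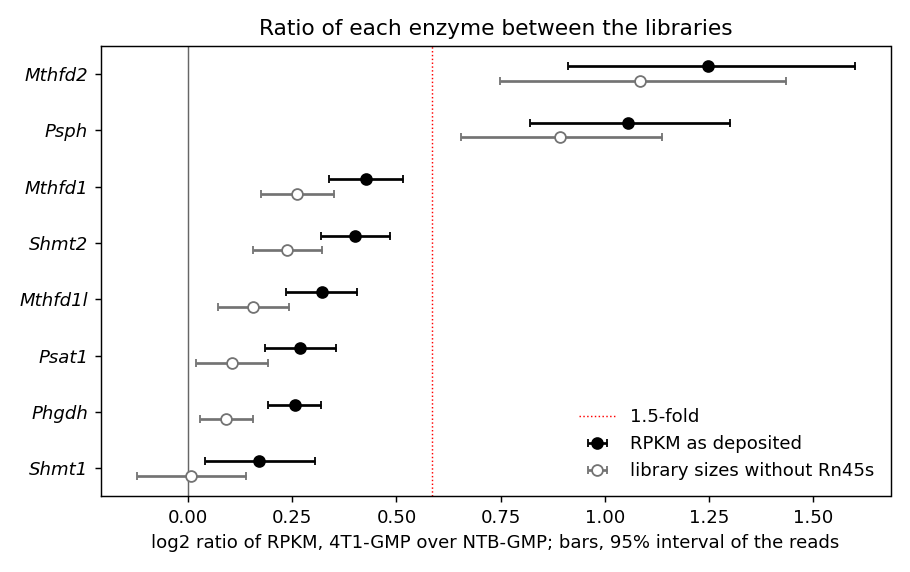
Log2 ratio of RPKM in 4T1-GMP over NTB-GMP for each enzyme, with 95% Clopper-Pearson intervals of the reads, for the RPKM as deposited (filled) and with library sizes without Rn45s (open). Mthfd2 and Psph lie beyond the dotted line at 1.5-fold in both versions, and the open interval of Shmt1 spans 0; after quantile normalization, which is not plotted, Phgdh was at -0.017.

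The enzymes differed in how much higher they were. All 12 ratios of Psph or Mthfd2 to one of the other 6 enzymes had an interval above 1, while among the 15 pairs of the other 6 enzymes, 6 did. These intervals were not adjusted for the 28 pairs compared. Psph and Mthfd2 were set apart because their ratios were the largest, and each pair was taken as the larger ratio over the smaller. The contrast between these counts was therefore partly fixed in advance and is description only. By role, the median log2 ratio was 0.27 over the 3 serine synthesis enzymes, 0.30 over the cytosolic folate enzymes Shmt1 and Mthfd1, and 0.40 over the 3 mitochondrial folate enzymes. The summed level was 1.24-fold higher for serine synthesis, 1.249-fold for the cytosolic enzymes and 1.38-fold for the mitochondrial enzymes. Within each role the log2 ratios spread more widely than these medians did, from 0.26 to 1.05 for serine synthesis, 0.17 to 0.42 in the cytosol and 0.32 to 1.24 in mitochondria.

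**Figure D3:**
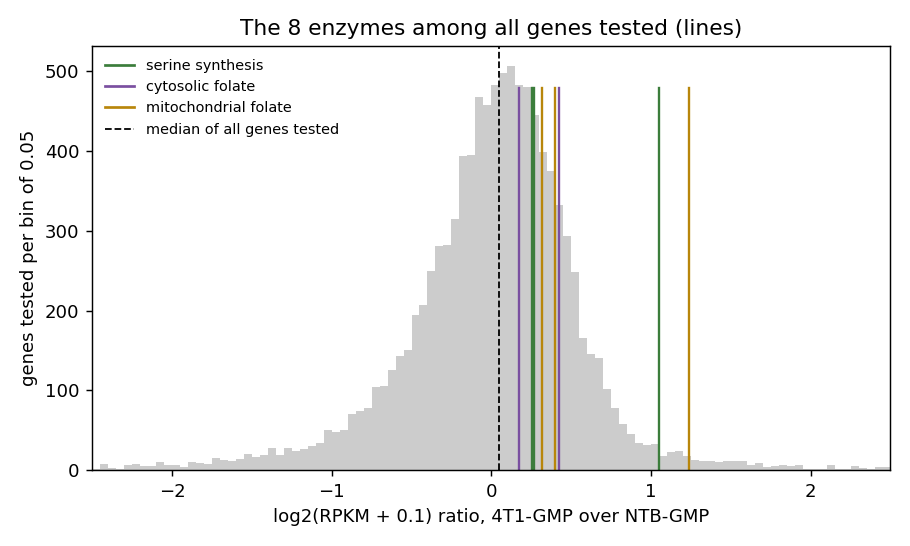
Number of genes per bin of 0.05 by log2(RPKM + 0.1) ratio in 4T1-GMP over NTB-GMP, for the 10378 genes tested (136 lie outside the axis), with a line for each of the 8 enzymes, colored by role. Of the enzyme lines, 6 stand between 0.17 and 0.42, just right of the median of all genes at 0.05 (dashed), and Psph and Mthfd2 stand apart at 1.05 and 1.24; Phgdh fell to -0.017 after quantile normalization.

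The order of the levels was the same in both libraries: Phgdh, Shmt2, Psat1, Mthfd1, Mthfd1l, Shmt1, Psph and Mthfd2. In NTB-GMP the Poisson intervals of Mthfd1l and Shmt1 overlapped, as did those of Psph and Mthfd2. In 4T1-GMP no neighbors overlapped. Summed over the 8 enzymes, the level was 370 RPKM without a tumor and 475 RPKM with 4T1. Phgdh took 35.8% of that sum in NTB-GMP and 33.3% in 4T1-GMP, whereas Psph went from 2.90% to 4.70% and Mthfd2 from 2.10% to 3.89%. The largest gains in RPKM were those of the abundant enzymes, 25.7 for Phgdh and 20.6 for Shmt2, although their folds were small.

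Genes next to the 8 enzymes in the same metabolism were taken from a list of 56, of which 39 passed the same limit on low values. Of these, 23 were higher and 16 lower in 4T1-GMP, where 54.7% of all genes tested were higher. A total of 2 were at least 1.5-fold higher and 4 at least 1.5-fold lower, where 9.8% and 11.6% of all genes tested were. The median log2 ratio of the list was 0.12, or 0.17 after quantile normalization, where that of the 8 enzymes was 0.16. It was -0.045 with library sizes without Rn45s. Under that scaling 16 of the 39 genes were higher, near the share of 39.2% over all genes, whose median was -0.11.

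For these genes, paired RPKM are given with NTB-GMP first. Among the genes that use or convert folate, Tyms, thymidylate synthase, had a log2 ratio of -0.13. Aldh1l1, which oxidizes formyl-tetrahydrofolate in the cytosol, was the highest of the 7 tested, at 0.50 with 1.11 and 1.62 RPKM. Mthfd2l, the paralog of Mthfd2, was the lowest at -0.30, with 1.66 and 1.34 RPKM. Mthfd2 exceeded its paralog in both libraries, and Mthfd2l had only 38 reads in NTB-GMP. Of the 5 folate uptake and retention genes tested, Slc46a1, the proton-coupled folate transporter, was the highest (0.44). Ggh, the hydrolase that trims the glutamate tail of folates, was the lowest (-1.03), with 139 reads in the NTB-GMP library and 199 in the deeper one.

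Of the 6 serine and glycine transport genes tested, 3 were higher and 3 lower. Slc1a5, a carrier of neutral amino acids at the plasma membrane, had 31.8 and 45.4 RPKM (log2 ratio 0.51). Sfxn1, the mitochondrial serine carrier, had 48.9 and 69.3 RPKM (0.50). Its relative Sfxn3 was the lowest of the group at -1.35, with 5.20 and 1.98 RPKM. In the glycine cleavage system, Dld (0.53) and Gcsh (0.14) were tested. Gldc, the decarboxylase of that system, was listed at 0 in both libraries, while Amt was at 0.445 and 0.176 RPKM.

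In the methionine cycle, Mat2b, a regulatory subunit of the enzyme that makes S-adenosylmethionine, was the highest of 5 genes tested at 0.52, and Mtr, methionine synthase, the lowest at -0.11. Among genes whose products consume serine, Sptlc1 and Sptlc2, subunits of the enzyme that begins sphingolipid synthesis, had log2 ratios of 0.53 and 0.49. Sdsl, a serine dehydratase-like gene, was the lowest of the 6 tested (-0.78).

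The ATF4 amino acid response list held 12 genes, of which 8 were tested, 5 were higher and 3 lower, where 54.7% of all genes tested were higher. Atf4 itself had 88.0 and 129 RPKM, a log2 ratio of 0.55. Asns, asparagine synthetase, had 11.2 and 33.0 RPKM, at 1.56 the highest ratio of the list. Sesn2, an inhibitor of mTORC1 signaling, stood at 0.96, and Aldh18a1, which begins proline synthesis, at 0.57. Slc7a5 and Slc3a2, the chains of an amino acid exchanger, were at -0.01 and 0.03, and Ddit3, a stress transcription factor, was the lowest at -0.60. Asns and Sesn2 were the 2 of the 8 tested genes of this list that were at least 1.5-fold higher in 4T1-GMP, where 9.8% of all genes tested were, and Ddit3 was at least 1.5-fold lower. Sesn2, at 0.888 and 1.82 RPKM, passed the limit of a mean of 1 RPKM only through 4T1-GMP.

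**Figure D4:**
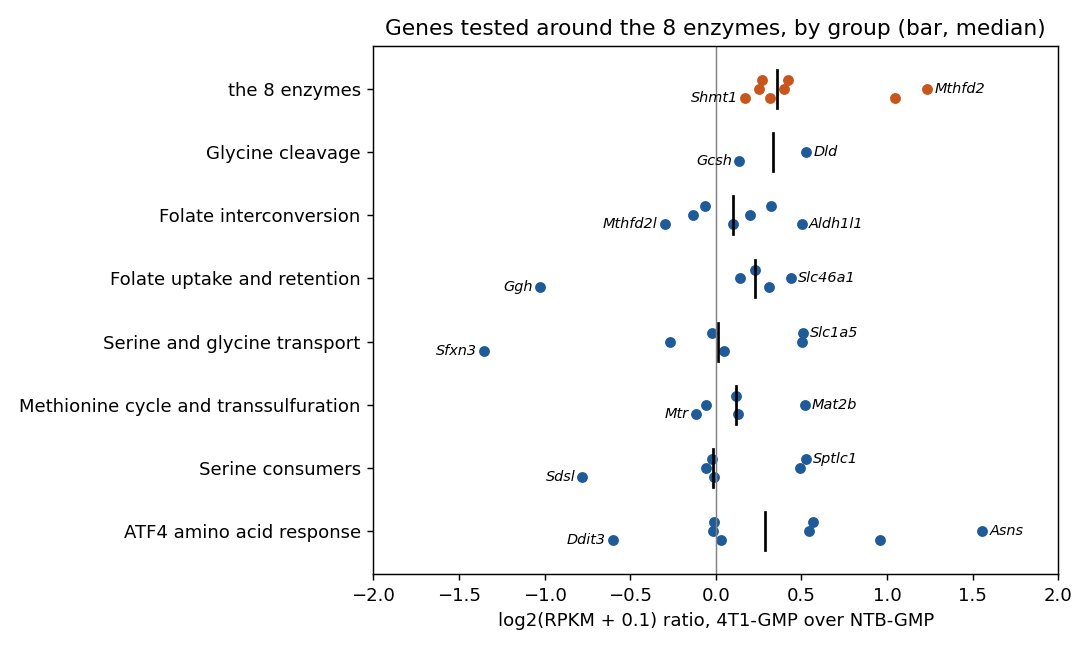
Log2(RPKM + 0.1) ratio in 4T1-GMP over NTB-GMP for the 8 enzymes (orange) and the 39 tested genes of related groups (blue), with a bar at each group's median and the lowest and highest gene of each group named. The orange points all lie above 0 (Phgdh would lie at -0.017 after quantile normalization), and the blue groups spread to both sides, from Sfxn3 at -1.35 to Asns at 1.56.

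Most cell cycle markers were also higher in 4T1-GMP. Of 9 S-phase genes, 7 were higher in 4T1-GMP with a median log2 ratio of 0.22, and of 10 G2 and M-phase genes, 9 were higher with a median of 0.37. The exceptions were Mcm2 (log2 ratio -0.01), Mcm6 (-0.07) and Mki67 (-0.08). Over all genes tested, 54.7% were higher and the median was 0.05. Among genes averaging 5 RPKM or more, as all these markers did, the values were 59.9% and 0.09. With library sizes without Rn45s, 6 S-phase genes and 8 G2 and M-phase genes were higher, against 39.2% of all genes. None of the S-phase genes and 3 of the G2 and M-phase genes were at least 1.5-fold higher, as were 9.8% of all genes. The part of these changes in the values of the 8 enzymes was not tested.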

How the data were processed

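Bulk RNA-seq of sorted GMPs was represented by 1 library per group, and the groups were taken from the sample labels. The authors deposited RPKM, reads divided by gene length and library size, for each gene symbol. The submitters' processing notes name the mm10 build, CASAVA 1.8.2, cutadapt 1.2.1, TopHat2 2.0.13, Picard 1.97, HTSeq 0.6.1 and edgeR 3.12.1, without their settings. The annotation and the strand setting are not given in the sources used here, and the library size includes the reads of Rn45s.

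Whole reads were recovered for all 14833 genes above 0 in either library, within a relative tolerance of 1e-10, as the fraction of reads over bases that gives each RPKM. In simulated data of 3219 genes, the ratio of reads was recovered for 100% and both counts for 83.8%; the rest were too low by a common factor, which widens intervals. This simulation took the library sizes as known, so it did not check them. The sizes were fixed only up to a whole multiple, chosen by how many gene lengths came within 1% of the GENCODE length. Multiple 4 gave 88 such genes and was used, while multiple 20 gave 76. Over all genes, 8.64% of the recovered lengths were that close. Another multiple would change the read counts and intervals. The recovered reads were 9486697 in NTB-GMP and 26353075 in 4T1-GMP. The log2(RPKM + 0.1) scale was used for log2 ratios, over genes whose RPKM averaged 1 or more, while folds of single enzymes are ratios of RPKM. Differences of at least 1.5-fold were counted. Clopper-Pearson intervals were scaled by library size, and ratios of 2 genes have exact conditional intervals of the odds ratio. In simulated data with 200 of 10378 genes doubled, 95.8% of intervals held the true ratio. These simulated reads were independent Poisson draws, as the intervals assume, so the simulation did not check reads that are not independent.

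The 8 enzymes, the lists and the alternatives were chosen with earlier results of these data known. All 8 enzymes were named, and, of each related group, the highest and lowest gene and any gene past 1.5-fold; other genes of these lists were named for their roles after their values were seen. Alternatives were other pseudocounts (1 and 0.01), other limits on low values (any gene above 0, or a mean of 5 RPKM), quantile normalization, centring on the median, library sizes without Rn45s, and folds of 1.25 and 2. Gene positions came from GENCODE M21 on GRCm38, the build also called mm10. Python 3.11.15, numpy 2.4.6, pandas 2.3.3, scipy 1.17.1 and matplotlib 3.10.9 were used.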

Additional observations from a re-analysis of the deposited data

How the results depend on the processing

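The median log2 ratio of the 8 enzymes, 0.36 as deposited, was 0.16 after quantile normalization and 0.20 with library sizes without Rn45s. The median of the related genes turned from 0.12 to -0.045 without Rn45s. After quantile normalization it was 0.17, slightly above that of the 8 enzymes, and the median over all genes tested was 0.005. The number of enzymes past the fold was 4 at the lowest fold tried, against 2 at 1.5-fold. The share of all genes past that lowest fold was not counted, so the 4 cannot be set against it. The log2 ratio of Phgdh turned to -0.017 after quantile normalization. Without Rn45s the changes follow from the common shift of -0.16, whereas the cause was not tested for quantile normalization. Of 56 values of single enzymes under alternatives, 45 lay inside that enzyme's interval on the reads, 10 left it with the sign kept and 1 changed sign. The 45 include values fixed in advance, since other limits on low values cannot change the ratio of a single enzyme. Every value that left its interval or changed sign came from quantile normalization or from library sizes without Rn45s. Depth limits Mthfd2 and Psph most, with 82 and 168 reads in NTB-GMP. No paired analysis was possible with 1 library per group, and leaving out a library would leave no comparison.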

Other observations

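Below the minimum mean RPKM, 2 genes of the ATF4 amino acid response list had more reads in 4T1-GMP than its greater depth of 2.95 times gives. Slc7a11, the cystine carrier, had 6 reads without a tumor and 165 with 4T1, or 0.0639 and 0.596 RPKM. Chac1, which breaks down glutathione, had 1 and 32 reads. Pycr1, which completes proline synthesis, had 9 and 25 reads, and Trib3, a pseudokinase of the same response, 2 and 3 reads. These genes were chosen after their values were seen.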
